A study of Homo sapiens with 12 samples.

Results

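The genes described here are 37 gastric and intestinal differentiation genes, chosen by symbol for their roles in gut cells, at a time when earlier results of these data were known. They fall into transcription factors of the gut, proteins of the brush border and cell surface, lipid carriers and lipoprotein assembly factors, secreted and cytosolic intestinal products, and genes of the gastric lining. The arrays held a probe named for 35 of them, among 20046 genes with a named probe, and 24 of the 35 gave a signal above background on at least 3 of the 12 arrays, among 12748 such genes. HNF4A and PHGR1 had no probe by symbol in the annotation used and are not analysed here.

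The 2 human cell lines, SNU-5 and MKN45, were derived from gastric cancers and carry amplified MET, the gene of the receptor tyrosine kinase for hepatocyte growth factor, which the small molecule crizotinib inhibits. Both were profiled untreated (control) and after 24 h of crizotinib on Illumina HumanHT-12 v4 arrays, giving 4 groups of 3 arrays, a control and a crizotinib group of each line. The sample labels give a dose of 1 µM. SNU-5 cells were grown in Iscove's modified Dulbecco's medium and MKN45 cells in RPMI-1640, so that line and medium cannot be told apart, and each line stands for a single tumour. No source used here says whether the 3 replicates were separate cultures, so the p-values measure the spread between these arrays, which may be technical.

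In the developing gut, the transcription factors SOX2 and CDX2 mark the future stomach and the future intestine, and together with the FOXA, GATA and HNF4 factors they turn on the genes that absorptive and secretory cells need. Enterocytes carry a brush border, a dense array of actin-based microvilli whose membrane holds digestive enzymes and adhesion proteins, and they pack dietary fat into lipoproteins. In intestinal metaplasia, a lesion that can precede gastric cancer, the stomach lining is replaced by epithelium of intestinal type, and gastric cancers can express genes of either kind. The members listed here include markers of both lineages.

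All values are background corrected, quantile normalized signals on the log2 scale, where a difference of 1 is a doubling, and a difference is given as the log2 difference of group means ± its standard error (SE). For each gene the brightest of its probes was used, and levels were not compared between genes. A change was called where the Benjamini-Hochberg adjusted p over all tested probes was under 0.05 in a single limma fit. A probe counted as detected on an array at a detection p under 0.05. The arrays detected between 18998 and 20248 of 47323 probes. The arrays of a group correlated at 0.986 or more with each other, apart from SNU-5 control replicate 1, whose correlations with the remaining controls of its line were 0.964 and 0.974.

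The label of gastric cancer cells was set against epithelial markers. KRT8, KRT19 and EPCAM were detected on every array, whereas CDH1 was detected on 1 of 3 SNU-5 controls and ESRP1 and GRHL2 on no SNU-5 array. The summed normalized signal of the 11 epithelial markers ran from 32600 to 43000 in SNU-5 controls, 36600 to 40000 in SNU-5 with crizotinib, 32800 to 36000 in MKN45 controls and 26800 to 29000 in MKN45 with crizotinib. The sum is on the linear scale and follows its brightest genes. Of the 10 tested, 2 were higher and 6 lower in untreated SNU-5 than in untreated MKN45, where 45.2% of all genes passed. With crizotinib 4 rose and 1 fell in SNU-5, and 5 rose and 2 fell in MKN45, beside 35.2% and 35.8% of all genes. Fibroblast markers moved with crizotinib in SNU-5, where LUM was higher by 2.50, DCN was higher by 2.62 and COL1A2 was at least 8.28-fold lower. The summed signal of the 7 fibroblast markers ran from 933 to 1640 in SNU-5 controls and from 5130 to 6300 with crizotinib, against 53.3 to 82.2 in MKN45, while PDGFRB and THY1 were detected on no array. The part of these markers in the SNU-5 results was not tested, and in whole cultures fewer cells of a type and less RNA per cell cannot be told apart.

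Crizotinib was followed by higher signals of more of these genes than lower ones in both lines. In SNU-5, 11 of the 24 tested members rose and 3 fell, or 58.3%, where 35.2% of all 12748 tested genes passed the test, 18.0% higher and 17.2% lower. In MKN45, 10 rose and 2 fell, or 50.0%, against 35.8% of all genes, 17.9% in each direction. The median log2 change of the tested members was 0.37 in SNU-5 and 0.35 in MKN45, beside medians of 0.02 and 0.00 over all genes tested. With the arrays scaled to a common median in place of quantile normalization, 7 members rose and 2 fell in SNU-5 and 6 rose and 2 fell in MKN45, and the medians of the tested members were 0.16 in both lines, beside -0.10 and -0.11 over all genes. Of the 23525 tested probes, 1729 were then higher and 3753 lower in SNU-5, and 1991 higher and 4064 lower in MKN45. The share of all genes under that scaling was not computed. At the thresholds of the study's methods (p under 0.001, adjusted p under 0.05 and at least 2-fold), 7 members rose and 2 fell in each line, where 14.6% of all genes passed in SNU-5 and 14.5% in MKN45. A member could enter the test through the group in which it was high, which affects these counts. Of the 9 members detected on all 12 arrays, 6 rose and 2 fell in SNU-5, and 3 rose and 1 fell in MKN45. The share that passed among all genes detected on all 12 arrays was not computed, so these counts are a description only.

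**Figure D1:**
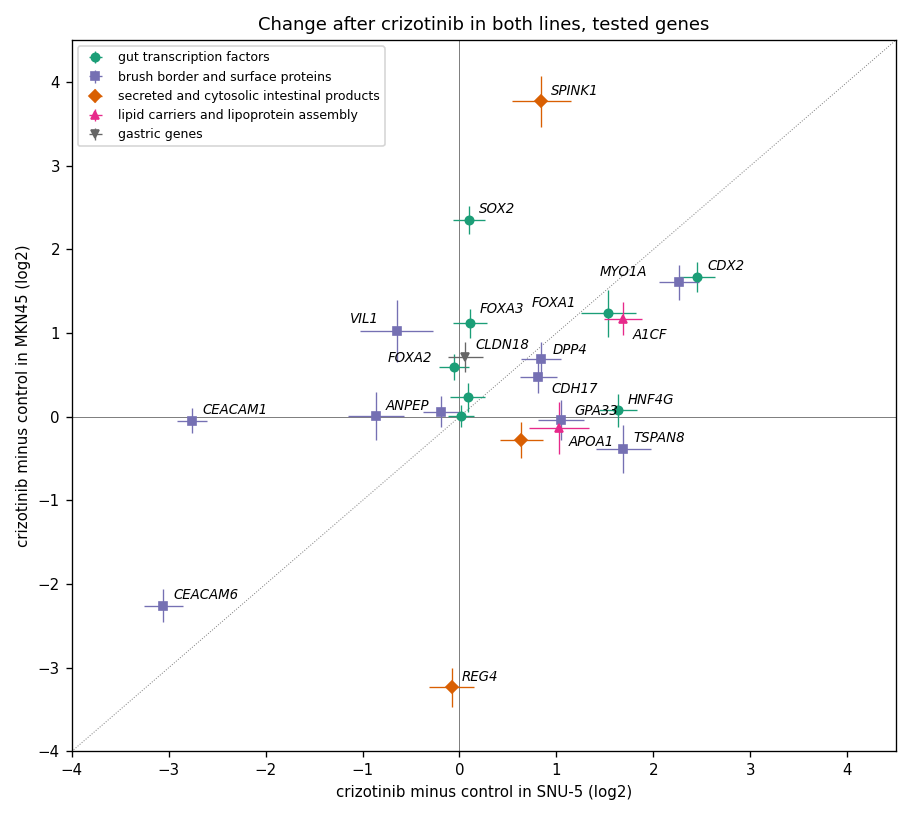
Log2 change after crizotinib in SNU-5 (horizontal axis) and in MKN45 (vertical axis) for the 24 tested genes, with bars of 1 SE, symbols for the gene groups and a dotted line where both changes are equal. CDX2, MYO1A, A1CF and FOXA1 lie at the upper right and CEACAM6 at the lower left, whereas SPINK1, SOX2 and REG4 lie far from 0 on the MKN45 axis and CEACAM1, HNF4G and TSPAN8 on the SNU-5 axis.

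5 members rose in both lines, namely CDX2, FOXA1, MYO1A, A1CF and DPP4, and CEACAM6 fell in both. The share of all tested genes that rose or fell in both lines was not computed, so these counts are a description only. Among the transcription factors, CDX2, the homeobox factor that specifies intestinal epithelium, measured 8.32, 8.02 and 7.69 on the SNU-5 control arrays and 10.52, 10.66 and 10.20 with crizotinib. In MKN45 it measured 7.54, 7.32 and 7.38 without drug and 9.14, 8.91 and 9.21 with it. In each line every treated array lay above every control. The log2 change was 2.45 ± 0.18 in SNU-5, or 5.46-fold (limma adjusted p = 6.66e-07), and 1.67 ± 0.18 in MKN45, or 3.18-fold (adjusted p = 1.59e-05).

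FOXA1, a forkhead factor that opens chromatin in foregut tissues, measured 9.82, 9.21 and 9.04 in SNU-5 controls and 10.96, 11.08 and 10.65 after crizotinib. Its MKN45 values were 9.04, 8.61 and 8.05 without drug and 10.01, 10.10 and 9.31 with drug. The treated and control arrays did not overlap in either line, although the 3 MKN45 controls were spread over almost 1 log2 unit. FOXA1 rose by 1.54 ± 0.28 in SNU-5 (adjusted p = 0.00102) and by 1.24 ± 0.28 in MKN45 (adjusted p = 0.00439). When the arrays were scaled to a common median in place of quantile normalization, neither rise passed the test (1.14, adjusted p = 0.065, and 0.88, adjusted p = 0.147).

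MYO1A, the brush border myosin that ties microvillar actin to the membrane, gave 8.42, 7.89 and 7.59 in SNU-5 controls and 10.39, 10.29 and 10.03 with crizotinib. In MKN45 it gave 6.10, 6.29 and 5.96 in controls and 7.76, 7.90 and 7.51 with crizotinib. The groups were well separated in both lines, and the level in SNU-5 lay above that in MKN45 with and without drug. MYO1A was 4.82-fold higher in SNU-5 (2.27 ± 0.21, adjusted p = 3.12e-06) and 3.04-fold higher in MKN45 (1.61 ± 0.21, adjusted p = 6.0e-05).

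CDX2 and MYO1A were the most changed members of their groups that rose in both lines, and the bases upstream of their transcription starts are shown for that reason, from RefSeq on build GRCh38.p14. Capitals mark matches to short motifs searched on both strands, namely CNATAAA for CDX factors, TGTTTAC for FOXA, CAAAGTCCA for HNF4, AGATAA for GATA factors, CATTGT for SOX and TATAAA for the TATA box. CNATAAA and TATAAA can cover the same bases. The table lists a pair of starts for MYO1A, both shown.
CDX2: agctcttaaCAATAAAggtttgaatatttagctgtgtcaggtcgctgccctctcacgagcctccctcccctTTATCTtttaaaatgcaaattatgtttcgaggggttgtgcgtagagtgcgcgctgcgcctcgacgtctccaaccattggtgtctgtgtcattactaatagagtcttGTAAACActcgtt
MYO1A start 1: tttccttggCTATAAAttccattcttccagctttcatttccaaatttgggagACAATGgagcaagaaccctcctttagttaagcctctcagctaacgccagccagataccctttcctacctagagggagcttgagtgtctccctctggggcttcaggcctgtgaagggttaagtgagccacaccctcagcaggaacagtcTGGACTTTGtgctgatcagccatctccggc
MYO1A start 2: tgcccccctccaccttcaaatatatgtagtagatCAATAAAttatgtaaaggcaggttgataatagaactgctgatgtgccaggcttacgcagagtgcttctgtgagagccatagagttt
The CDX2 stretch is the 190 bases before the start on the minus strand (chr13:27969316-27969505), and the MYO1A stretches are 230 and 120 bases on the minus strand (chr12:57050130-57050359 and chr12:57051199-57051318). A CDX match began 181 bases before the start of CDX2, and a FOXA match on the opposite strand began 13 bases before it. MYO1A held a CDX match 221 bases before its first start, where it shared bases with a TATAAA, and another 86 bases before the other start. An HNF4 match on the opposite strand lay 30 bases before the first start of MYO1A.

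Over all 35116 promoters of the table, 8.93% held CNATAAA in the 250 bases before the start, 2.98% held TGTTTAC, 0.325% held CAAAGTCCA, 9.17% held AGATAA, 9.29% held CATTGT and 10.7% held TATAAA. Of the 18 tested members with a promoter in the table, 4 held CNATAAA, namely CDX2, FOXA3, REG4 and MYO1A, and 3 held TGTTTAC, namely CDX2, TSPAN8 and CLDN18. AGATAA was held by 4 of the 18, CATTGT by 2, CAAAGTCCA by 1 and TATAAA by 5. A member with several starts was counted if any of them held the motif, whereas the shares over all promoters count each start, so the measures are unlike. A match of letters is a description of the sequence only, and no binding was measured.

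A1CF, the RNA-binding partner of the enzyme that edits APOB mRNA, measured 5.20, 5.88 and 5.30 in SNU-5 controls and 7.33, 7.01 and 7.08 after crizotinib. On the MKN45 arrays it measured 4.76, 4.88 and 4.59 in controls, of which 1 was detected, and 6.00, 6.10 and 5.66 with crizotinib. Treated arrays were above the controls throughout. A1CF rose by 1.68 ± 0.20 in SNU-5 (adjusted p = 2.56e-05) and by 1.17 ± 0.20 in MKN45 (adjusted p = 4.8e-04). A second tested A1CF probe rose by 1.65 and 0.62, both called, and for that probe the change was larger in SNU-5 than in MKN45 by 1.03 (adjusted p = 0.0124), which the brighter probe did not show (0.51, adjusted p = 0.304). The 210 bases upstream of A1CF on the minus strand (chr10:50885628-50885837) are given beside those of CDX2 and MYO1A because it rose with them, and they held TATAAA matches on both strands near 205 bases and a GATA match 148 bases before the start.
A1CF: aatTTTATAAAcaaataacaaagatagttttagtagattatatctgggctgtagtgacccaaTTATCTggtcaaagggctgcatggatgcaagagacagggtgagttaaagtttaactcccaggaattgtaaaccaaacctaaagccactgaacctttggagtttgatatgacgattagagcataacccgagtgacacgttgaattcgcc
The motif for CDX factors was not in this window.

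DPP4, a brush border peptidase that removes dipeptides from the N-terminus of peptides whose next-to-first residue is proline or alanine, measured 5.40, 4.95 and 4.64 in SNU-5 controls, of which 2 were detected, and 5.97, 5.70 and 5.85 with crizotinib. Its MKN45 values were 5.47, 5.64 and 5.90 against 6.59, 6.42 and 6.08. DPP4 rose by 0.84 ± 0.21 in SNU-5 (adjusted p = 0.00691) and by 0.69 ± 0.21 in MKN45 (adjusted p = 0.0207). The MKN45 call was lost with median scaling and without MKN45 control replicate 1 or 2 or MKN45 crizotinib replicate 1 or 2, with adjusted p up to 0.0907.

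**Figure D2:**
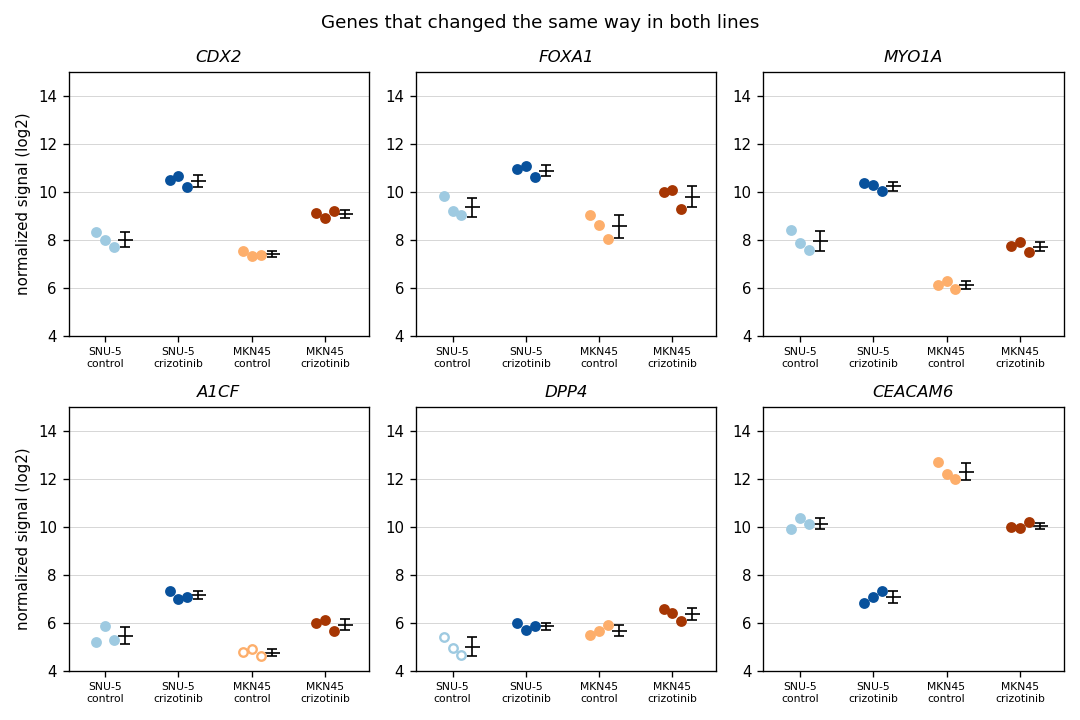
Normalized log2 signal of the 6 genes that changed in the same direction in both lines, 1 point per array, with the mean and SD of the 3 arrays in black beside each group. Filled points mark groups in which the gene was detected on all 3 arrays. CEACAM6 fell and the other genes rose, with treated arrays clear of the controls in every panel.

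CEACAM6 and CEACAM1 are adhesion proteins of the carcinoembryonic antigen family, CEACAM6 held by a lipid anchor and CEACAM1 spanning the membrane with a signalling tail. CEACAM6 measured 9.92, 10.37 and 10.10 in SNU-5 controls and 6.82, 7.06 and 7.34 with crizotinib, and in MKN45 12.69, 12.20 and 12.01 against 9.99, 9.95 and 10.19. It was the member that fell furthest in SNU-5, by 3.06 ± 0.20 on the log2 scale, or 8.33-fold (adjusted p = 2.08e-07), and it fell by 2.26 ± 0.20 in MKN45, or 4.78-fold (adjusted p = 2.55e-06). CEACAM1 measured 10.93, 10.96 and 10.74 in SNU-5 controls and 8.12, 8.15 and 8.08 with crizotinib, and in MKN45 10.28, 10.46 and 10.10 against 10.20, 10.04 and 10.46. The SNU-5 groups lay far apart while the MKN45 groups overlapped. CEACAM1 fell by 2.76 ± 0.15 in SNU-5 (adjusted p = 6.26e-08), its MKN45 difference was -0.05 with a 95% interval from -0.38 to 0.29, and the difference between the lines was -2.71 ± 0.22 (adjusted p = 6.41e-06). All 3 CEACAM1 probes fell in SNU-5, by 2.71 to 2.94.

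CEACAM5, which encodes carcinoembryonic antigen itself, did not share the fall of CEACAM6 in MKN45, where CEACAM1 was not called either. In SNU-5 CEACAM5 was near background, so that a fall there could not be measured. It was detected on 1 of 3 SNU-5 controls and on none with crizotinib, and its MKN45 values were 12.24, 11.63 and 11.66 without drug and 11.93, 12.01 and 11.78 with it. The MKN45 groups overlapped, with a difference of 0.06 and a 95% interval from -0.34 to 0.46. The probes of these related genes were not checked for cross-hybridisation. The 150 bases upstream of CEACAM6 (plus strand, chr19:41755380-41755529) and CEACAM1 (minus strand, chr19:42528482-42528631) are given because the relatives shared the fall in SNU-5 and differed in MKN45.
CEACAM6: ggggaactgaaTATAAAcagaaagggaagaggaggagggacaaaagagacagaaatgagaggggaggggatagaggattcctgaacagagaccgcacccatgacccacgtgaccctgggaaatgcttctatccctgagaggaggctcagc
CEACAM1: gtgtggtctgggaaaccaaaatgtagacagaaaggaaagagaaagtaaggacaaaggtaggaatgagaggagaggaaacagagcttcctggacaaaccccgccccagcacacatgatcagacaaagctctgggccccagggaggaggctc
The 250 bases before the start were aligned in pairs with gaps allowed, and identical bases were counted as a share of the 250. The share was 71.6% for CEACAM1 and CEACAM6, 76.0% for CEACAM5 and CEACAM6 and 68.0% for CEACAM1 and CEACAM5. Unrelated promoters were not aligned, so there is no baseline for these shares. A TATAAA stood 139 bases before the start of CEACAM6 and none was in the CEACAM1 window.

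The test of the difference between the lines (change in SNU-5 minus change in MKN45) passed for 7 of the 24 members, or 29.2%, where 12.0% of all genes passed, 5.81% with a positive and 6.14% with a negative difference. The difference was positive for HNF4G, TSPAN8 and REG4 and negative for FOXA3, SOX2, CEACAM1 and SPINK1. For REG4 and SOX2 the SNU-5 signal was at background with and without drug, so that a change there could not be measured. Without SNU-5 control replicate 1 the count was 11, with CDX2 (0.94, adjusted p = 0.0205), MYO1A (0.91, adjusted p = 0.0247), LGALS4 and GPA33 added, and the SNU-5 count of members was then 13. The probes that passed also rose in number, to 2703 from 2295 for the line difference and to 7486 from 7053 in SNU-5. The share of all genes in that fit was not computed.

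SPINK1, a secreted trypsin inhibitor, showed the largest rise of any member. In MKN45 it measured 9.45, 9.76 and 10.96 in controls and 13.81, 13.96 and 13.71 with crizotinib. It was detected on no SNU-5 control (4.37, 4.49 and 4.40) and on all 3 SNU-5 arrays with crizotinib (5.09, 5.65 and 5.04). The treated arrays lay above the controls in both lines, and the MKN45 controls were more spread than the treated arrays. The rise in MKN45 was 3.77 ± 0.30, or 13.6-fold (adjusted p = 1.05e-06). In SNU-5 the signal was at least 1.30-fold higher after crizotinib (adjusted p = 0.0526, not called), and the difference between the lines was -2.93 ± 0.43 (adjusted p = 7.36e-04). The SNU-5 difference passed in 7 of 22 alternatives, among them a limma fit of each line alone (adjusted p = 0.0172). In the other alternatives it did not pass, with adjusted p up to 0.19.

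REG4, a secreted lectin of the regenerating islet family found in intestinal metaplasia, moved the other way. Its MKN45 controls measured 11.17, 10.65 and 11.78 and the treated arrays 7.86, 7.80 and 8.24, a fall of 3.23 ± 0.23, or 9.41-fold (adjusted p = 3.65e-07). In SNU-5 the 6 values ran from 4.29 to 4.45, none detected. The difference between the lines was 3.15 ± 0.33 (adjusted p = 4.3e-05). The 120 bases before its start on the minus strand (chr1:119811461-119811580) are shown because REG4 fell in cells in which CDX2 rose, and held a CDX match on the opposite strand 112 bases and a TATAAA 31 bases before the start.
REG4: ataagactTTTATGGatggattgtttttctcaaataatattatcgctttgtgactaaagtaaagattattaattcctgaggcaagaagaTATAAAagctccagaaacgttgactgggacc
LGALS4, the galectin of the gut lining that links glycoproteins at the cell surface, was high in both lines. It measured 10.26, 9.90 and 9.35 in SNU-5 controls and 10.48, 10.67 and 10.28 with crizotinib, so that the treated arrays lay just above the controls, and it rose by 0.64 ± 0.22 (adjusted p = 0.04). That call was lost with median scaling (0.22, adjusted p = 0.721) and when SNU-5 control replicate 2 or 3, crizotinib replicate 1 or 2 of that line, MKN45 control replicate 2 or 3 or MKN45 crizotinib replicate 1 was left out, with adjusted p from 0.0507 to 0.165. It was also lost in a limma fit of each line alone (adjusted p = 0.104). In MKN45 LGALS4 differed by -0.28, with a 95% interval from -0.75 to 0.19.

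Among the other transcription factors, HNF4G, an orphan nuclear receptor of the intestine, was measured in SNU-5 at 6.03, 6.82 and 6.58 in controls and at 8.21, 8.16 and 7.96 with crizotinib. In MKN45 it was near background, detected on 1 array of each group, with values from 4.61 to 4.99. The SNU-5 groups did not overlap. HNF4G rose by 1.63 ± 0.20 in SNU-5 (adjusted p = 3.22e-05), and the difference between the lines was 1.56 ± 0.28 (adjusted p = 0.00275).

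SOX2, a factor of foregut and stomach progenitors, was detected in MKN45 alone. It measured 7.53, 7.36 and 7.27 in MKN45 controls and 9.94, 9.93 and 9.36 with crizotinib, a rise of 2.35 ± 0.17, or 5.12-fold (adjusted p = 3.55e-07). The treated arrays were all above the controls, and a second SOX2 probe rose by 2.40. In SNU-5 the 6 SOX2 values ran from 4.32 to 4.52, none detected, and the difference between the lines was -2.26 ± 0.24 (adjusted p = 4.6e-05).

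FOXA3 and FOXA2, forkhead factors that act with FOXA1 in liver and gut, were bright in MKN45 and rose there. FOXA3 measured 9.39, 9.61 and 9.83 in MKN45 controls and 10.74, 10.89 and 10.55 with crizotinib, and 4.67 to 5.13 in SNU-5, where 2 of 3 arrays in each group detected it. FOXA3 rose by 1.12 ± 0.17 in MKN45 (adjusted p = 2.63e-04), and the difference between the lines was -1.01 ± 0.24 (adjusted p = 0.0188). That difference did not pass with median scaling (-0.64, adjusted p = 0.206), without SNU-5 crizotinib replicate 1 (adjusted p = 0.0619) or without MKN45 crizotinib replicate 2 (adjusted p = 0.0579). FOXA2 rose by 0.59 ± 0.15 in MKN45 (adjusted p = 0.00884), which median scaling reduced to 0.24 (adjusted p = 0.427), and was not detected in SNU-5. The signals of GATA4 and GATA6, zinc finger factors of the foregut, were low on every array (4.35 to 5.92) and passed in neither line.

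**Figure D3:**
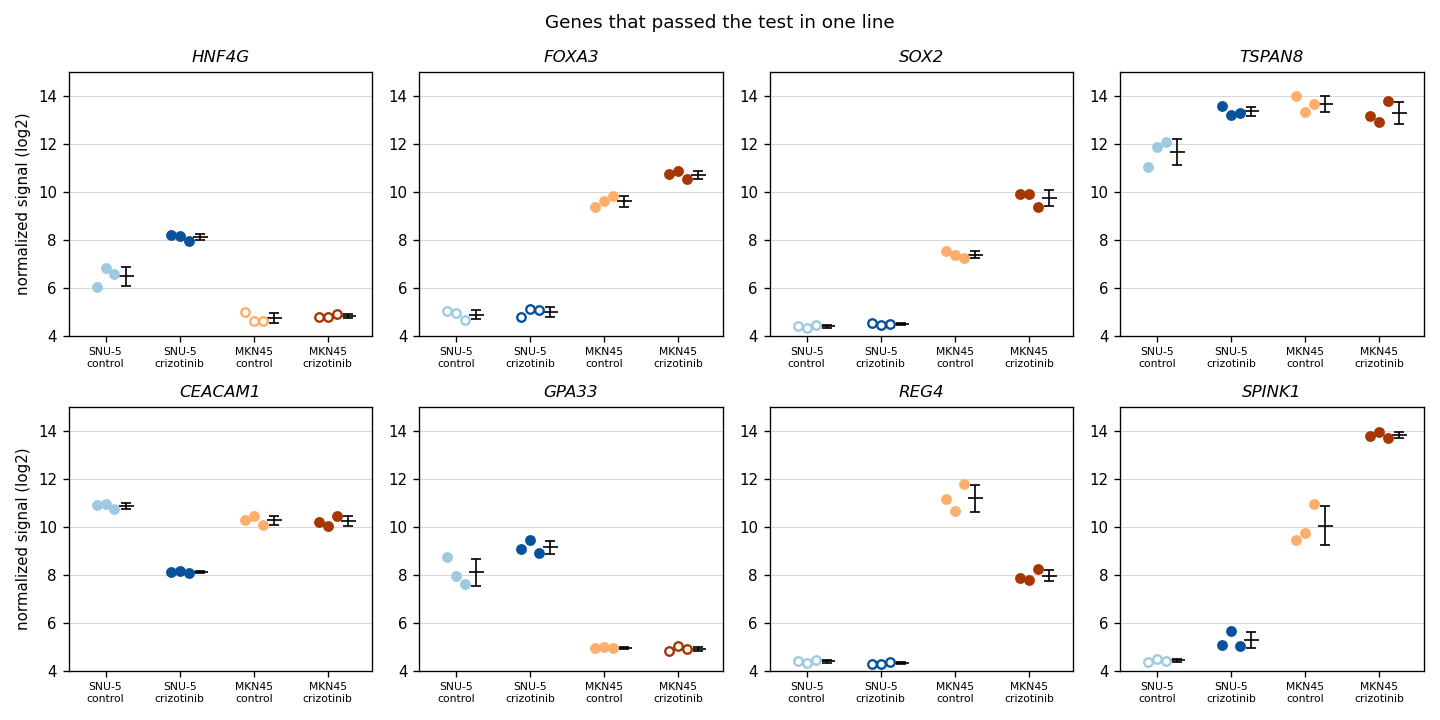
Normalized log2 signal of 8 genes that passed the test in a single line, 1 point per array, with the mean and SD of the 3 arrays in black beside each group. Open points mark groups in which the gene was not detected on all 3 arrays. HNF4G, TSPAN8, CEACAM1 and GPA33 changed in SNU-5, and FOXA3, SOX2, REG4 and SPINK1 in MKN45.

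Several surface proteins of enterocytes rose in SNU-5 without passing in MKN45. TSPAN8, a tetraspanin of gut epithelium, measured 11.06, 11.87 and 12.11 in SNU-5 controls and 13.60, 13.22 and 13.30 with crizotinib, and in MKN45 14.02, 13.34 and 13.69 against 13.18, 12.92 and 13.80. The SNU-5 groups were apart and the MKN45 groups overlapped. TSPAN8 rose by 1.69 ± 0.29 in SNU-5 (adjusted p = 5.36e-04), its MKN45 difference was -0.38 with a 95% interval from -0.999 to 0.23, and the difference between the lines was 2.07 ± 0.40 (adjusted p = 0.00509).

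GPA33, an immunoglobulin-like surface antigen of intestinal cells, measured 8.74, 7.93 and 7.63 in SNU-5 controls and 9.06, 9.46 and 8.91 with crizotinib, while its MKN45 values stayed between 4.83 and 5.00. It rose by 1.04 ± 0.24 in SNU-5 (adjusted p = 0.00439), and median scaling reduced this to 0.68 (adjusted p = 0.226). CDH17, the liver-intestine cadherin, was bright in SNU-5, at 12.04 to 12.59 in controls and 12.83 to 13.26 with crizotinib, and rose by 0.81 ± 0.19 (adjusted p = 0.00501; with median scaling 0.46, adjusted p = 0.17). In MKN45 CDH17 measured 9.07 to 9.16 in controls and 9.40 to 9.91 with crizotinib, a difference of 0.48 that did not pass (adjusted p = 0.073), and the change was not shown to differ between the lines for either gene (adjusted p = 0.0621 for GPA33 and 0.523 for CDH17).

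ANPEP and VIL1 gave the least settled results of the brush border group. ANPEP, the brush border aminopeptidase N, measured 7.61, 6.76 and 6.26 in SNU-5 controls and 5.95, 6.18 and 5.92 with crizotinib, a fall of 0.86 (adjusted p = 0.0375). The control values were widely spread, and without SNU-5 control replicate 1, the highest of them, the fall was 0.48 (adjusted p = 0.124). The call was also lost without SNU-5 control replicate 2 or any of the 3 SNU-5 crizotinib arrays, and with median scaling (adjusted p = 0.074). Nor did ANPEP pass in a limma fit of each line alone (adjusted p = 0.0985) or with the deposited log2 values (adjusted p = 0.0506). VIL1, the actin-bundling protein of microvilli, measured 8.25, 8.34 and 8.06 in MKN45 controls and 9.28, 9.38 and 9.06 with crizotinib, every treated array above the controls. Its MKN45 difference was 1.03 ± 0.37 (adjusted p = 0.0531, not called). It passed in 10 of 22 alternatives, among them a limma fit of each line alone (adjusted p = 0.000956) and the deposited log2 values (adjusted p = 0.0125). In the other alternatives it did not pass, with adjusted p up to 0.316. With the replicate number as a block within each line, which removes the spread that same-numbered arrays share, VIL1 passed in MKN45 (adjusted p = 0.00118) and 13 members were called. In SNU-5, VIL1 measured 7.09, 6.86 and 5.38 in controls and 6.14, 6.13 and 5.13 with crizotinib, lower in each same-numbered pair although the groups overlapped. The SNU-5 difference of -0.65 did not pass (adjusted p = 0.226), and it passed with the block within each line (adjusted p = 0.0144), although the numbers did not pair the SNU-5 arrays by the rule used, and without SNU-5 control replicate 3 (-1.18, adjusted p = 0.00505). For VIL1 the lines differed in their change by -1.67 (adjusted p = 0.0652), which passed with that block (adjusted p = 0.0021) and without that replicate (-2.21, adjusted p = 0.00185).

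Of the lipid genes, only A1CF and APOA1 were bright enough to be tested. APOA1, the main protein of high density lipoprotein, measured 5.29, 5.46 and 4.59 in SNU-5 controls, of which 2 were detected, and 6.38, 6.75 and 5.29 with crizotinib, and it was detected on no MKN45 array. The groups overlapped in SNU-5. APOA1 was higher by 1.03 ± 0.31 (adjusted p = 0.0238), a call lost without SNU-5 control replicate 3 (0.77, adjusted p = 0.0886) or either of crizotinib replicates 1 and 2 of that line (adjusted p = 0.0929 and 0.116). It was also lost in a limma fit of each line alone (adjusted p = 0.11). FABP2, APOA4, APOB and MTTP, which bind fatty acids or build chylomicrons, were detected on no array, and FABP1 was detected on SNU-5 arrays alone, too few of them to be tested. Hepatocyte markers, which share lipoprotein genes with the gut, were low. Their summed signal over 15 genes on SNU-5 arrays ran from 170 to 187 untreated and from 177 to 278 after crizotinib, and on MKN45 arrays from 144 to 199 untreated and from 304 to 350 after crizotinib. Of 6 tested, AFP rose by 1.13 in SNU-5, and in MKN45 ASGR1 rose by 1.85, CYP2E1 rose by 0.91 and ALB fell by 0.60. The part of these markers in the results was not tested.

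CLDN18, a tight junction protein of the stomach, was the only gastric member bright enough to be tested. It measured 9.41, 9.67 and 9.87 in MKN45 controls and 10.50, 10.59 and 9.99 with crizotinib, without overlap, and was detected on no SNU-5 array. The rise in MKN45 was 0.71 ± 0.18 (adjusted p = 0.00783), which was lost with median scaling (0.31, adjusted p = 0.276), and a second tested CLDN18 probe was higher by 0.43 without passing (adjusted p = 0.221). GKN1, a secreted protein of gastric surface cells, was detected on no array. PGC, a pepsinogen, measured 4.40 to 4.57 in MKN45 controls and 4.66 to 5.02 with crizotinib and was too dim to be tested. The 11 members below the threshold also included CDX1, OLFM4, PIGR and PRAP1, and over all 11 the signals on the 12 arrays ran from 4.23 to 5.31.

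The untreated lines were already far apart in these genes. Of the 24 tested members 23 passed the test between untreated SNU-5 and untreated MKN45, 9 higher and 14 lower in SNU-5, where 45.2% of all genes passed, 22.7% higher and 22.5% lower. A member detected in a single line enters such a count through that line. Of the 9 members detected on all 12 arrays, 5 were higher and 4 lower in SNU-5. The share that passed among all genes detected on all 12 arrays was not computed, so this count is a description only. CDH17 was higher in SNU-5 by 3.14 ± 0.19, MYO1A by 1.85 ± 0.21, FOXA1 by 0.79 ± 0.28, CEACAM1 by 0.59 ± 0.15 and CDX2 by 0.59 ± 0.18. The CEACAM1 value is that of its brightest probe, and its size depended on the probe. The other tested CEACAM1 probes were higher in SNU-5 by 0.61 and 3.16 (limma adjusted p = 0.00764 and 4.75e-09). The probe with the difference of 3.16 was detected on all 3 SNU-5 controls but on only 2 of the 3 MKN45 controls. TSPAN8, LGALS4, CEACAM6 and VIL1 were higher in MKN45, with differences of -2.00, -2.07, -2.17 and -1.77. The calls of CDX2 and FOXA1 were lost with median scaling (adjusted p = 0.157 and 0.156), as was that of CEACAM1 (adjusted p = 0.0523). Those of CDX2 and FOXA1 were also lost without SNU-5 control replicate 1 or 2 or MKN45 control replicate 2 or 3, and that of FOXA1 also without SNU-5 crizotinib replicate 1 or 2 or MKN45 crizotinib replicate 1, with adjusted p up to 0.183.

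Other members were detected on every control of one line and on none, or only some, of the controls of the other. FOXA2 was at least 100-fold, REG4 at least 79.6-fold, SPINK1 at least 36.1-fold, CLDN18 at least 27.2-fold and SOX2 at least 5.66-fold higher in untreated MKN45, where the bound sets the MKN45 mean against the dimmest signal that counted as detected in SNU-5. These bounds hold for the brightest probe of each gene. A second CLDN18 probe gave a log2 difference of -1.70 and a second SOX2 probe -2.09. The remaining FOXA2 and CLDN18 probes were detected on no array. CEACAM5 and FOXA3 were also higher in MKN45, with measured differences of -7.12 and -4.72, but were detected on 1 and 2 of the 3 SNU-5 controls. In the other direction ANPEP was higher in SNU-5 by 2.20 and HNF4G by 1.73, each detected on 1 of the 3 MKN45 controls. These 4 differences rest in part on background signal in the dim line. GPA33 was detected on all controls of both lines and was higher in SNU-5 by 3.15. With crizotinib the bound for REG4 was 8.45-fold and that for SOX2 28.9-fold, both higher in MKN45. Among the transcription factors, CDX2 and FOXA1 were detected on every array of both lines, FOXA2 and SOX2 on MKN45 arrays alone, and HNF4G on all SNU-5 arrays and 2 of the 6 MKN45 arrays.

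**Figure D4:**
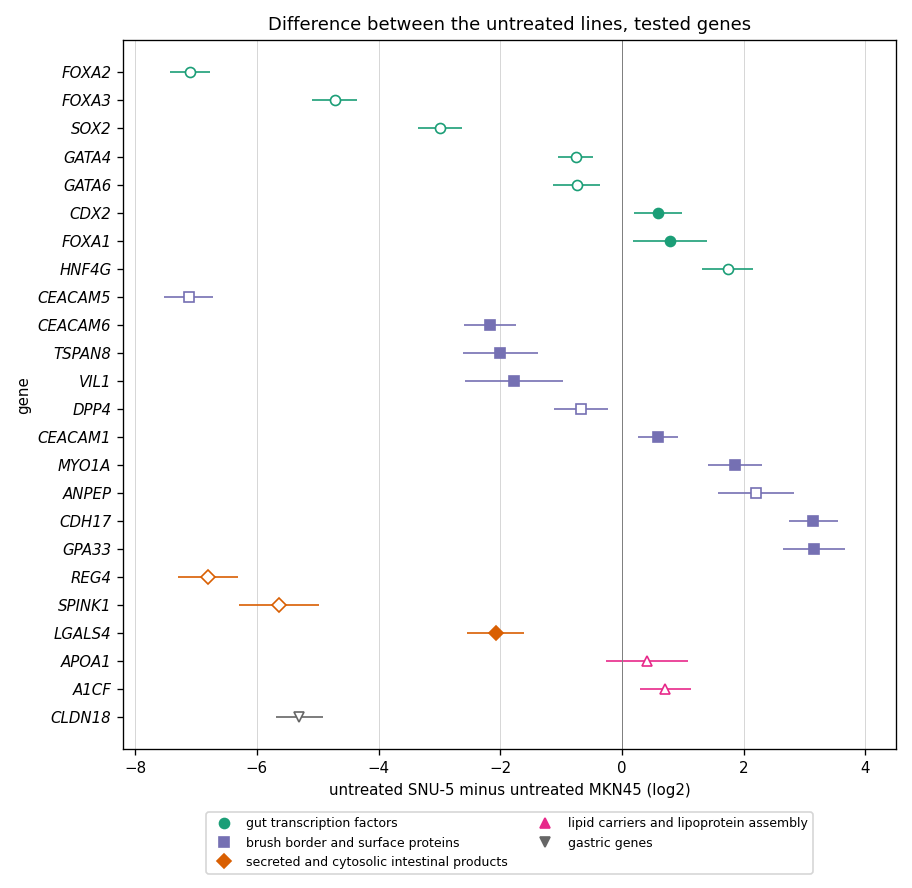
Difference between untreated SNU-5 and untreated MKN45 (log2) for the 24 tested genes in their groups, with 95% confidence intervals from the limma fit. Open symbols mark genes that were not detected on all 3 arrays of both untreated groups, for which the value depends on background. Values left of 0 are higher in MKN45, with FOXA2, CEACAM5 and REG4 below -6, and CDH17 and GPA33 stand above 3.

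Further genes of the same programmes, from lists outside the 37, were read beside the members. Of 19 tested brush border and enterocyte genes, 9 rose and 1 fell in SNU-5, and 4 rose and 1 fell in MKN45, where 35.2% and 35.8% of all genes passed, so that the MKN45 share was below that of all genes. The microvillar scaffold gene USH1C rose by 1.77 in SNU-5 and 1.10 in MKN45, and its partner ANKS4B by 0.90 and 1.66. SLC26A3, the chloride exchanger of the colon, and CDHR5, a protocadherin that links microvilli, rose by 2.14 and 1.74 in SNU-5 and were detected on no MKN45 array.

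Of 23 gastric genes outside the list with a probe, 11 were bright enough to be tested. In MKN45 5 of these fell and the other 6 did not pass, where 17.9% of all genes were lower. TFF1, a trefoil peptide of gastric mucus, fell by 2.49, its relative TFF2 was at least 2.42-fold lower, CTSE, an aspartic protease, fell by 2.46, and VSIG1, a junction protein of the stomach, fell by 1.42. TFF1, CTSE and VSIG1 were detected on no SNU-5 array. In SNU-5, 2 of the 11 rose and 1 fell, a share below the 35.2% of all genes. The member CLDN18 rose in the same MKN45 arrays.

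Of 14 other gut transcription factors, 4 rose and 1 fell in SNU-5, and 2 rose and 6 fell in MKN45, beside 35.2% and 35.8% of all genes, so that the SNU-5 count was close to that of all genes. NR5A2, a nuclear receptor of gut and pancreas, rose by 2.21 in MKN45 and differed by -0.17 in SNU-5. KLF5, a factor of proliferating crypt cells, rose by 1.21 in SNU-5 and fell by 1.08 in MKN45, with a difference between the lines of 2.30 (adjusted p = 6.15e-04). VDR, the vitamin D receptor, fell by 1.26 in MKN45, and PPARA, a receptor for fatty acids, was detected on SNU-5 crizotinib arrays alone, at least 1.59-fold above the controls.

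Of 14 lipid genes outside the list, 2 rose in SNU-5 and the others did not pass, a share below the 35.2% of all genes. In MKN45 3 rose and 2 fell, close to the 35.8% of all genes, among them APOM (0.77 higher), CIDEC, a lipid droplet protein (fell by 1.33), and ACSL5, an acyl-CoA synthetase (fell by 0.80), while the sterol transporter NPC1L1 was detected only on MKN45 crizotinib arrays, at least 1.30-fold above the controls. Of 9 goblet, Paneth and endocrine genes, 3 rose and 2 fell in MKN45, where 35.8% of all genes passed. In SNU-5 1 rose and 1 fell, a share below the 35.2% of all genes. The endocrine factor INSM1 rose by 2.67 in MKN45, and NEUROG3, which acts before it, was at least 2.19-fold higher there, detected on none of the controls and all 3 treated arrays. FCGBP, a mucus protein, fell by 1.45 in MKN45, and AGR2, which folds mucins, fell by 1.27 in MKN45 and rose by 0.64 in SNU-5.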

How the data were processed

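Total RNA of the 4 labelled groups, 3 samples each, was hybridised to 12 single-colour Illumina HumanHT-12 v4 arrays. The authors deposited raw signal intensities of 47323 probes, without normalization or background subtraction, each with a detection p-value. The authors also deposited log2 values, which came within 0.005 of a limma quantile normalization of those intensities and were used as an alternative. All sample columns were used.

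Probes were named through the platform's annotation table, which gave a single symbol for 30113 probes, several for 8 and no symbol for 17202. The neqc function of limma 3.58.1 was applied in R 4.3.3 (normexp background correction with the detection p-values, an offset of 16, quantile normalization and log2). Of the probes, 23525 (49.7%) had a detection p under 0.05 on 3 arrays or more and were tested in one fit with 4 group means (lmFit and eBayes). Adjusted p-values are Benjamini-Hochberg values over all tested probes within a comparison. Where a probe was detected on no array of a group, the fold is a bound against the higher of its own signal and the dimmest detected signal of each array. The number of arrays limits precision.

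The members and all gene lists were chosen with earlier results of these data known, so counts and medians are given without a test of the list. Values on every array are given for members called with a log2 change or line difference of at least 1 and detected on all arrays of a group, and for some further members, and up to 4 genes of each further list were named by the size of their called change. The deviations of same-numbered control and treated arrays from their group means correlated at 0.116, 0.379 and 0.106 in MKN45, which met the rule used for pairing (every value over 0.1). In SNU-5 they correlated at 0.127, -0.019 and 0.486, which did not meet it. Arrays of different numbers were not compared, so these values cannot show that same-numbered arrays belong together. Any pairing thus comes from the data and not from the labels. The fit was tested on simulated data. Promoter sequences were taken from RefSeq (GRCh38.p14) for the 26 members listed there and searched in Python 3.11.15.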

Additional observations from a re-analysis of the deposited data

Results flagged for a closer look

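7 members differed between the lines in their change after crizotinib, by the test of the difference itself (change in SNU-5 minus change in MKN45). The difference was 1.56 for HNF4G, 2.07 for TSPAN8 and 3.15 for REG4, and it was -1.01 for FOXA3, -2.71 for CEACAM1, -2.93 for SPINK1 and -2.26 for SOX2. TSPAN8 and CEACAM1 were detected on all 12 arrays. REG4 and SOX2 were detected on no SNU-5 array, HNF4G on 1 array of each MKN45 group and FOXA3 on 2 arrays of each SNU-5 group, so for these genes the change in the dim line rests on background signal. SPINK1 was detected on no SNU-5 control.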

How the results depend on the processing

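No called change of a member reversed direction under any alternative run, although differences near 0 that were not called did change sign, such as that of ANPEP in MKN45 (0.007, and -0.12 to 0.23 with single arrays left out). Of the comparisons of single members with an alternative, 1871 kept their side of the threshold, 77 lost the call and 44 gained one. At the thresholds of the methods, 2799 probes passed in SNU-5 in place of 7053, 2826 in MKN45 in place of 7270, 1284 between the drug responses in place of 2295 and 4186 between the untreated lines in place of 9142, and 9 members passed in SNU-5 in place of 14. Median scaling moved the median change of all genes to -0.10 in SNU-5 and -0.11 in MKN45, and probes higher and lower to 1729 and 3753 in SNU-5 (from 3529 and 3524) and to 1991 and 4064 in MKN45 (from 3602 and 3668). With it 9 members passed in SNU-5 and 8 in MKN45 (in place of 14 and 12), the median over the 24 tested members was 0.16 in both lines, and 1185 probes passed between the responses. Without a filter the median of the members, then 35, was 0.0616 in SNU-5, 0.0646 in MKN45 and 0.0337 between the untreated lines (from -0.75), a larger set that includes members at background. Without background correction (quantile normalization alone, or the deposited log2 values) there were 11 members that differed between the lines in either case, and medians of -0.49 and -0.49 between the untreated lines; the cause was not tested.

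Leaving out each array in turn gave 11 to 15 members in SNU-5, 11 to 13 in MKN45, 19 to 23 between the untreated lines, and 6 to 11 members and 1519 to 2703 probes between the responses. The highest member count between the responses came without SNU-5 control replicate 1, and the lowest probe counts without MKN45 crizotinib replicate 1 (1519) and SNU-5 crizotinib replicate 1 (1523).

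With the replicate number as a block over all arrays, 15 members passed in SNU-5 and 13 in MKN45, adding SPINK1 (adjusted p = 0.0456) and VIL1 (adjusted p = 0.00809), and VIL1 and APOA1 also passed between the responses (adjusted p = 0.0109 and 0.0368). The block within each line was chosen after seeing the data, gave 16 and 13 members and 10 between the responses, and changed no other call in MKN45 than that of VIL1. In SNU-5 it added VIL1 and SPINK1 (adjusted p = 0.0144 and 0.0433), and between the responses VIL1, LGALS4 and APOA1 (adjusted p = 0.0021, 0.0494 and 0.0129). No chip was named in the files, so the chip as a block was not run. The mean of all tested probes of a gene was compared for members only. Low signal over background limits the dim members most, since a change near background is understated.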
